A study of Mus musculus with 8 samples.

Results

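Potassium channel genes were followed across 8 arrays of mouse skin. They were taken as the protein-coding genes whose symbol starts with Kcn followed by a letter from a to v, and a gene was included where its probe was well above background on at least 2 of the 8 arrays. The brightest probe stood for a gene with several probes. This gave 71 genes of the 94 such genes in the annotation, out of 21095 genes named on the array. Since the choice used signal over background, the fact that these genes were measurable in skin is no result here. By role, 21 of the 71 encode the pores of voltage-gated channels and 6 encode modifier subunits of such channels. Another 8 were grouped, by symbol, as calcium- and sodium-activated channels. The rest are 11 inward rectifiers, 12 tandem-pore leak channels and 13 auxiliary subunits or regulators.

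A potassium channel lets potassium leave or enter the cell down its gradient and so sets the resting membrane potential and ends the action potential. Voltage-gated channels open on depolarization, calcium-activated channels couple the membrane potential to calcium, inward rectifiers and tandem-pore channels hold the potential at rest, and the ATP-sensitive inward rectifiers close when the cell is rich in ATP. Most of these channels are built from pore subunits together with auxiliary subunits that have no pore of their own. In skin they are known from the muscle and nerve of the tissue, from vessel walls, and from keratinocytes and hair follicles.

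Whole skin was taken from female mice on the FVB/N background, and the 4 groups were CD109-/- mice 24 h after DMBA (a carcinogen that initiates skin tumours), CD109+/+ mice 24 h after DMBA, untreated CD109-/- mice and untreated CD109+/+ mice, with 2 arrays each. The CD109-/- mice lack CD109, a membrane protein that binds TGF-beta, and had been backcrossed to FVB/N, while the CD109+/+ mice were purchased FVB/N mice, so the genotypes were not stated to be littermates. Untreated skin had received acetone, the solvent of DMBA, according to the labels. The age of these mice is not given in the sources used here, nor whether each array held a mouse of its own. The spread behind each p-value is thus the one seen between these samples and may be technical. A log2 signal is the log2 of the deposited intensity minus that of the 75th percentile of its array. This percentile was an intensity of 337 to 527, 63.6% to 67.0% of the spots on an array stood well above background and 0 spots were saturated. All DMBA arrays lay in 1 row of the slide and all untreated arrays in the other, so treatment and row cannot be told apart. Arrays labelled CD109+/+ lay in slide columns 1 and 2 and those labelled CD109-/- in columns 3 and 4. The labelled genotype and the side of the slide cannot be told apart either.

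The labels of 2 untreated arrays ran against the deleted gene. Cd109 had log2 signals of −7.85 and −7.52 in CD109-/- skin after DMBA, against 1.09 and 1.67 in CD109+/+ skin after DMBA. It had 1.89 and −7.90 for untreated CD109-/- replicates 1 and 2 as labelled, against 2.29 and −6.28 on those labelled untreated CD109+/+ replicates 1 and 2. The array labelled CD109-/- untreated replicate 1 therefore had Cd109 signal, the array labelled CD109+/+ untreated replicate 2 had none above background, and the probe was well above background on exactly 4 arrays. Each of the 2 arrays also correlated most with an array of the other label, CD109-/- untreated replicate 1 with CD109+/+ untreated replicate 1 (r = 0.989 over probes) and CD109+/+ untreated replicate 2 with CD109-/- untreated replicate 2 (r = 0.985). Results are given with the labels as deposited first. Beside them stand an exchanged arrangement, in which these 2 arrays trade groups, and a fit without both. The exchanged arrangement was chosen with results of these data known, and its p-values describe the arrays divided by their Cd109 signal, not the genotypes as labelled. In its results, CD109-/- and CD109+/+ skin name the groups after the trade, so an untreated array in each carries the other label.

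Sequences are shown for the 5 members that the results turn on most, as the 250 bases before the RefSeq transcription start of the gene in GRCm38.p6, 5′ to 3′ on the strand of the gene. Capitals mark matches, on either strand, of the TATA box TATAAA, the GC box GGGCGG, the E box CANNTG and the CArG box. Kcnmb2, Kcnmb1 and Kcnmb4 encode auxiliary subunits of the large-conductance calcium-activated channel, and the signal of Kcnmb4 ran opposite to that of Kcnmb1 across the arrays.
Kcnmb2, chr3:31902453-31902702, plus strand: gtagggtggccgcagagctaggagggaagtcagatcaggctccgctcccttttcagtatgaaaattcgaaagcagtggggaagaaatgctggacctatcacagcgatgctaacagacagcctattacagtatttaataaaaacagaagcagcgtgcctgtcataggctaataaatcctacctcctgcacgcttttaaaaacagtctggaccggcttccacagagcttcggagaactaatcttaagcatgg
Kcnmb1, chr11:33962763-33963012, plus strand: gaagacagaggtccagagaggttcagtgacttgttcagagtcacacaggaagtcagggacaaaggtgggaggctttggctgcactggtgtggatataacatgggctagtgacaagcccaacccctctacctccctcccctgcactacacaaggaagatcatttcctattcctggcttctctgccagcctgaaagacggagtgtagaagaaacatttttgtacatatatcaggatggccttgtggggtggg
Kcnmb4, chr10:116473524-116473773, minus strand: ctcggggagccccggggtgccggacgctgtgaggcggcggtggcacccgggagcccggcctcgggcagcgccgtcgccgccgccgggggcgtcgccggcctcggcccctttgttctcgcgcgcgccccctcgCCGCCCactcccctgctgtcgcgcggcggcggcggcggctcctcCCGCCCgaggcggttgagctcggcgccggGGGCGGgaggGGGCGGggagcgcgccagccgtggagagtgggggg
Kcnd3, chr3:105451640-105451889, plus strand: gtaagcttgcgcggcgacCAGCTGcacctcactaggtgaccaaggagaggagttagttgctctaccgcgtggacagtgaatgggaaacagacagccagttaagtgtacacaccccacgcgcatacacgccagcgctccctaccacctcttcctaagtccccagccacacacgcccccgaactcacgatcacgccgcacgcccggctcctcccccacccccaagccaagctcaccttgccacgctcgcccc
Kcnj8, chr6:142571615-142571864, minus strand: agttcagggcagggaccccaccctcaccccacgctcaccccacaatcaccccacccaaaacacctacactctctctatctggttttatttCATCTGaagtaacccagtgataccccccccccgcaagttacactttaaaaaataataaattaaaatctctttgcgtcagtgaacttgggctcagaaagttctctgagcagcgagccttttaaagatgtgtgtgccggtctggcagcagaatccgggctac
The windows of Kcnmb2 and Kcnmb1 held no match of the 4 motifs, those of Kcnd3 and Kcnj8 held 1 E box each, and that of Kcnmb4 held 4 GC boxes, none of which overlapped another match. RefSeq windows were matched for 53 of the 71 members, in 74 windows. A GC box stood in 43.2% of these windows, against 32.7% of all 32851 windows of the table. An E box stood in 66.2% of the windows of members and in 66.2% of all windows, a TATA box in 4.05% against 12.4%, and a CArG box in 0 of the members' windows against 1.47%. A match describes the letters of the window only.

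The 50 members that were well above background on all 8 arrays, 16 on 3 to 7 arrays and 5 on exactly 2 make up the 71. Those just inside the limit of 2 arrays were Kcnab2, Kcng1, Kcnn1, Kcns2 and Kcnmb2. Just outside it, on 1 array each, were 5 genes, among them Kcnh8, Kcna10, Kcnip1 and Kcne2, and 18 more genes were above background on 0 arrays. A probe entered the tests where both arrays of some group had it well above background. That let in 66 members with the labels as deposited, leaving out Kcnj9, Kcnh1, Kcng1, Kcnn1 and Kcns2, and 68 in the exchanged arrangement, leaving out Kcnj9, Kcnn1 and Kcnmb2. The range of a member over the 8 arrays ran between 0.15 for Kcnh4 and 4.94 for Kcnmb2 on the log2 scale, with a median of 1.86.

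**Figure D1:**
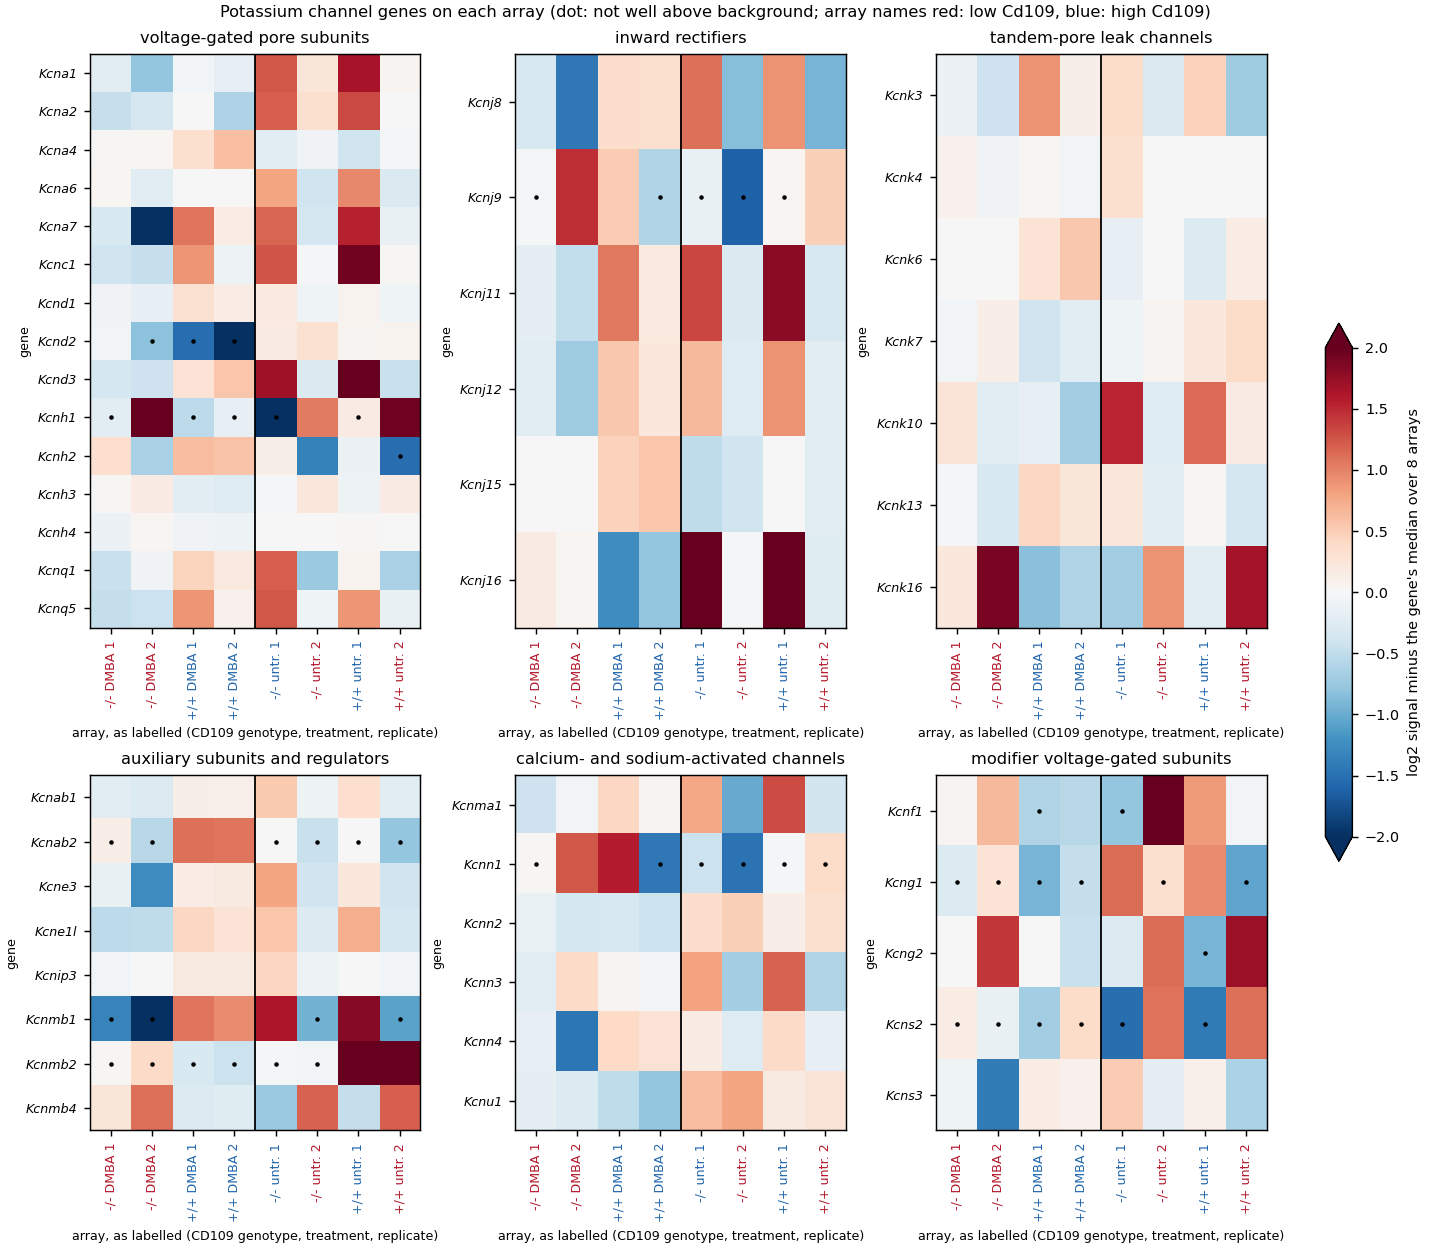
Log2 signal of the 47 members named in the text on each array, minus the median of the gene over the 8 arrays. Each role has a panel of its own, with arrays ordered by treatment, then by label. Dots mark values not well above background. Many of the members drawn were named by their division between low and high Cd109 signal or by the exchanged arrangement. The pattern shared by the arrays with low Cd109 signal is thus in part set by that choice. Kcnmb2 stands out on the 2 arrays labelled untreated CD109+/+.

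With the labels as deposited, 1 potassium channel gene passed in any comparison, Kcnmb2, and it was lower in DMBA-treated CD109+/+ skin and in untreated CD109-/- skin than in untreated CD109+/+ skin. Kcnmb2 encodes the subunit that makes the large-conductance channel inactivate. Its log2 signals were −7.82 and −7.46 in CD109-/- skin after DMBA and −8.14 and −8.27 in CD109+/+ skin after DMBA. They were −7.86 and −7.89 on the arrays labelled untreated CD109-/-, against −3.33 and −3.66 on those labelled untreated CD109+/+. Only those last 2 arrays were well above background, and they lay apart from the other 6. Kcnmb2 thus became a member and entered the tests only through the group where it was high, so its p-values are conditioned on that difference and are no independent support for it. DMBA-treated CD109+/+ skin was lower than untreated CD109+/+ skin by a log2 fold change of −4.71 (SE 0.20, limma adjusted p = 0.0100), at least 6.04-fold when set against the lowest signal that was well above background. Untreated CD109-/- skin was lower than untreated CD109+/+ skin (−4.38, SE 0.20, limma adjusted p = 0.0152), at least 4.73-fold. The direction held in 4 of 4 pairs of arrays in both comparisons. Averaged over the genotypes, the change with DMBA was −2.24 (SE 0.14, limma adjusted p = 0.0331).

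The Kcnmb2 differences kept their size when single arrays or the 2 arrays in doubt were set aside, and the adjusted p-values were larger. That size was largely set in advance, since only the arrays labelled untreated CD109+/+ were well above background. It is thus no support for the differences. With the normexp background the changes were smaller, as given below. Without both arrays in doubt, its log2 fold change was −4.88 with DMBA in CD109+/+ skin (limma adjusted p = 0.0865), −4.56 between the untreated genotypes (adjusted p = 0.189) and −2.31 for DMBA averaged over the genotypes (adjusted p = 0.144), and 0 of 36917 probes passed in these 3 comparisons. Of the 8 fits that left out 1 array, 5 kept the DMBA result in CD109+/+ skin past the threshold, with log2 fold changes between −4.88 and −4.54 over the 8. The threshold was missed without DMBA-treated CD109+/+ replicate 1 (limma adjusted p = 0.204), without DMBA-treated CD109+/+ replicate 2 (adjusted p = 0.170) and without untreated CD109+/+ replicate 1 (adjusted p = 0.0588). The other 2 results missed the threshold in all 8 such fits, with log2 fold changes between −4.55 and −4.21 in untreated skin and between −2.33 and −2.15 for DMBA averaged. Kcnmb2 was not tested in the exchanged arrangement, since no group then had both arrays above background. A second probe of the same transcript was above background on 0 arrays, with log2 signals between −8.17 and −6.44.

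The remaining members gave no call with the labels as deposited. After DMBA, 0 of 66 members differed between CD109-/- and CD109+/+ skin in limma, where 0.0921% of all 36917 probes passed (0.0163% higher and 0.0758% lower), and 9 members had an unadjusted p under 0.05. The methods' t-test gave 8 members without adjustment and 0 after Benjamini-Hochberg adjustment. In untreated skin the 1 member of 66 stood against 0.00542% of all probes, and in the mean of the treatments it was 0 of 66 against 0.00271%, with 5 at an unadjusted limma p under 0.05, while the methods' t-test gave 3 without adjustment. For DMBA in CD109+/+ skin the 1 lower member stood against 0.184% of all probes (0.146% higher and 0.0379% lower), and for DMBA averaged over the genotypes against 0.0298% (0.0244% higher and 0.00542% lower). For DMBA in CD109-/- skin it was 0 members against 0%, with 6 at an unadjusted limma p under 0.05, while the methods' t-test gave 4. The difference between the DMBA effects was passed by 0 members against 0% of probes, with 7 at an unadjusted limma p under 0.05, while the methods' t-test gave 3. The share of all probes at an unadjusted p under 0.05 is not given, here or below. The unadjusted counts are thus not read as a trait of these genes. The median log2 fold change of the members after DMBA was −0.19 for CD109-/- over CD109+/+, beside 0.07 over all probes. It was −0.01 beside −0.02 in untreated skin.

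Across the arrays, some members followed the Cd109 signal and not the label, as did 27.1% of all tested probes, counting both directions. Among the members the lower direction was the more common. The 4 arrays with low Cd109 signal are both arrays of DMBA-treated CD109-/- skin and the arrays labelled untreated CD109-/- replicate 2 and untreated CD109+/+ replicate 2. Of 69 members tested in at least 1 arrangement, 18 were lower on all 4 of these arrays than on any of the 4 arrays with high Cd109 signal, which is 26.1% of them, where 14.0% of all tested probes were. Only 3 members were higher on all 4, which is 4.35%, where 13.1% of all tested probes were. This division was made by a measured gene, so the counts are a description and no test was made. Among the 18 were Kcnmb1, Kcnj8, Kcnd3, Kcne1l, Kcnj12, Kcnj11, Kcnn4, Kcne3, Kcna7, Kcnk3, Kcnab1, Kcns3, Kcnq5, Kcnq1, Kcnd1, Kcnma1 and Kcnk13, and the 3 were Kcnmb4, Kcnk16 and Kcnh3. With quantile normalization the counts were 20 lower and 3 higher, of which 18 and 2 were the same genes, where 14.98% and 12.8% of all tested probes were, and Kcnh3 was no longer among them. With centring on the median they were 23 and 2, of which 18 and 2 were the same, where 19.6% and 7.68% of all tested probes were.

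**Figure D2:**
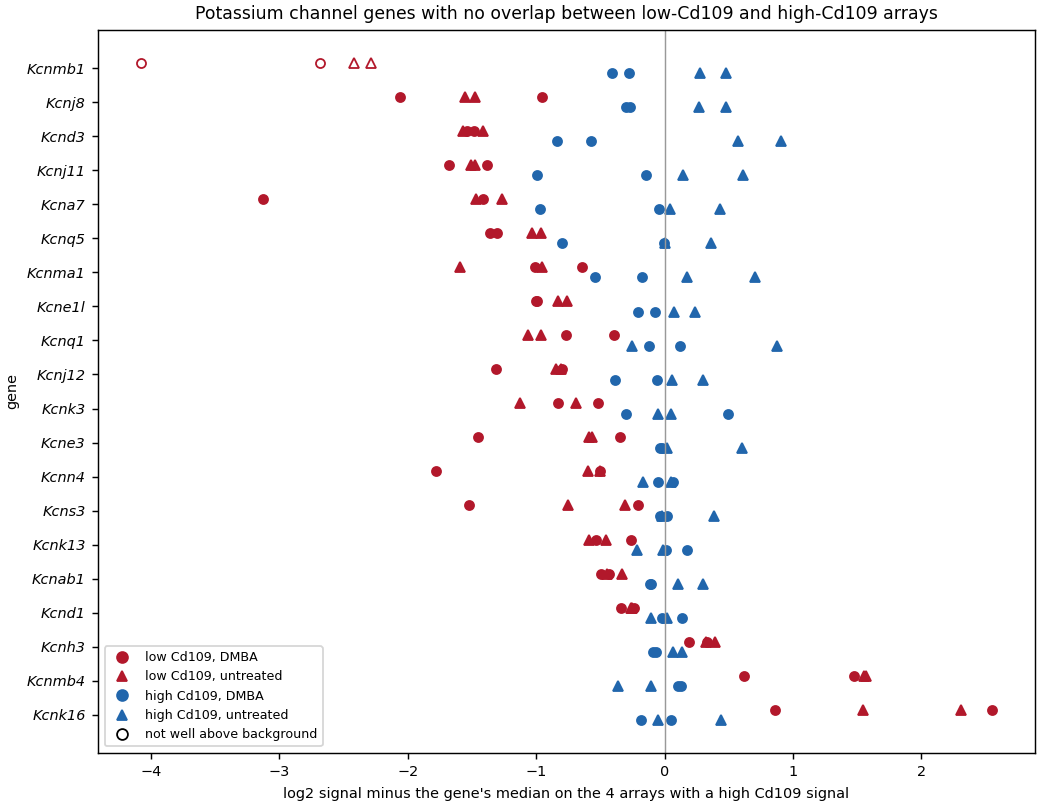
Log2 signals, minus the gene's median on the 4 arrays with high Cd109 signal, of 17 members that were lower and the 3 that were higher on all 4 arrays with low Cd109 signal than on any of the 4 with high signal, with 1 point per array, the low-Cd109 arrays drawn above the high-Cd109 arrays within each gene. The gap between the sets is 1.88 for Kcnmb1, 0.65 for Kcnj8 and 0.57 for Kcnd3.

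The arrays with low Cd109 signal also differed in marker genes of hair follicle and other skin cells. All 9 hair shaft genes, 8 of 8 inner root sheath genes, 6 of 6 hair matrix genes and 7 of 7 melanocyte genes were higher on the 4 low-Cd109 arrays without overlap. The summed signal of the hair shaft list was 6.58 to 10.63 on the low-Cd109 arrays and 1.15 to 1.72 on the high-Cd109 arrays, on the log2 scale. For the inner root sheath it was 9.14 to 10.80 against 3.25 to 4.37, for the hair matrix 4.59 to 6.04 against 2.28 to 2.79 and for melanocytes 6.38 to 6.99 against 3.14 to 3.42. In the other direction, 8 of 10 skeletal muscle genes, 5 of 7 smooth muscle and pericyte genes, 4 of 5 endothelial genes, 5 of 5 adipocyte genes, 5 of 5 macrophage genes and 3 of 7 genes of Schwann cells and nerve were lower on the low-Cd109 arrays without overlap. The summed skeletal muscle signal was 8.97 to 9.58 on the low-Cd109 arrays against 9.95 to 10.79 on the high-Cd109 arrays, and that of smooth muscle and pericytes 5.64 to 6.47 against 6.36 to 7.28. No marker with a probe was at background on every array. In whole skin, fewer cells of a type and less RNA per cell cannot be told apart, and the part of these cells in the results on potassium channel genes was not tested.

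**Figure D3:**
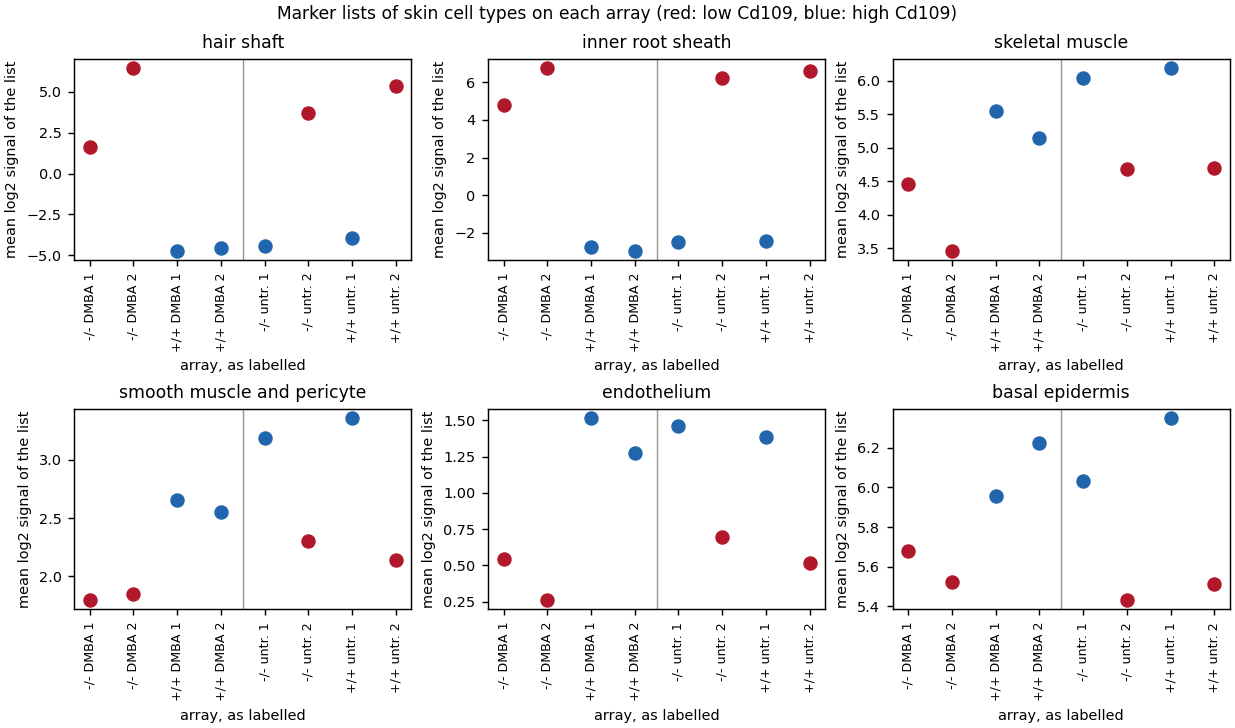
Mean log2 signal of 6 cell type marker lists on each array, with 1 point per array, low-Cd109 arrays in one colour and high-Cd109 arrays in the other. The hair shaft list sits between 1.60 and 6.45 on the low-Cd109 arrays and between −4.71 and −3.95 on the high-Cd109 arrays, while the 2 muscle lists sit lower on the low-Cd109 arrays.

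In the exchanged arrangement 7 of 68 members passed between the genotypes after DMBA (10.3%, where 20.1% of all 37144 probes passed), 18 in untreated skin (26.5%, where 8.89% passed) and 27 in the mean of the treatments (39.7%, where 30.8% passed). Those lower in CD109-/- skin outnumbered those higher in each. After DMBA it was 5 lower and 2 higher, beside 8.47% and 11.6% of all probes. With quantile normalization it was 7 lower and 0 higher, and with centring on the median 19 lower and 1 higher. It was 0 in all without DMBA-treated CD109+/+ replicate 1 against 19 without DMBA-treated CD109-/- replicate 1. The shares of all probes in these alternatives are not given, and centring moved the median of all probes to −0.26. The counts in them are thus not read as a trait of these genes. In untreated skin it was 16 lower and 2 higher, beside 3.95% and 4.95%. In the mean of the treatments it was 22 lower and 5 higher, beside 15.8% and 15.02%. The median log2 fold change of the members was −0.35 in untreated skin and −0.32 in the mean of the treatments, beside −0.03 and 0.03 over all probes. Over all comparisons there were 60 such calls, of which 6 were kept in all 8 fits that left out 1 array. These were Kcnd3 in untreated skin and in the mean of the treatments, and Kcne1l, Kcnj11, Kcnmb1 and Kcnmb4 in the mean of the treatments. Of the 480 single-array fits of these calls, 264 lost the call and 0 turned the sign.

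**Figure D4:**
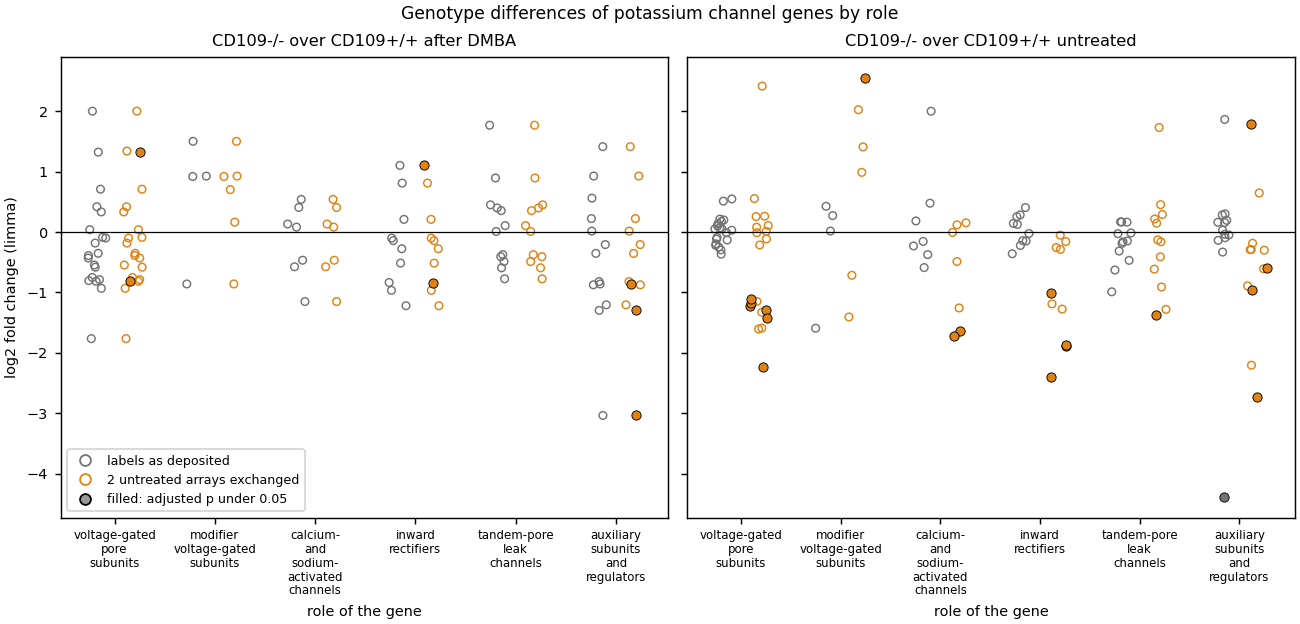
Log2 fold change of CD109-/- over CD109+/+ skin for every tested member by role, after DMBA on the left and untreated on the right, with the labels as deposited in grey and the 2 arrays exchanged in orange. Filled points had a limma adjusted p under 0.05, and the single filled grey point is Kcnmb2 in untreated skin.

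Among the voltage-gated pore subunits, 10 of 21 passed as lower and 1 as higher in CD109-/- skin in the mean of the treatments of the exchanged arrangement, where 15.8% and 15.02% of all probes passed, with a median log2 fold change of −0.60 beside 0.03 over all probes. Kcnd3 encodes a pore of the fast-inactivating A-type current. Its log2 signals were −3.62 and −3.67 in CD109-/- skin after DMBA against −2.98 and −2.71 in CD109+/+ skin after DMBA. They were −1.57 and −3.55 on the arrays labelled untreated CD109-/-, against −1.23 and −3.71 on those labelled untreated CD109+/+. The 2 untreated groups as labelled thus overlapped, each holding 1 high and 1 low array. With the labels as deposited its log2 fold change was −0.80 after DMBA (SE 0.94, limma adjusted p = 0.594) and −0.09 in untreated skin (SE 0.94, adjusted p = 1). With the arrays exchanged it was −0.80 after DMBA (SE 0.17, adjusted p = 0.0333) and −2.23 in untreated skin (SE 0.17, adjusted p = 0.00542), and the call after DMBA was kept in 3 of 8 single-array fits. A second probe of Kcnd3 was above background on 1 array only.

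Kcna7, a voltage-gated channel known from skeletal muscle and heart, had log2 signals of 0.74 and −0.96 in CD109-/- skin after DMBA against 2.12 and 1.19 in CD109+/+ skin after DMBA. On the untreated arrays they were 2.20 and 0.69 under the label CD109-/- and 2.59 and 0.89 under the label CD109+/+. Its exchanged log2 fold change in the mean of the treatments was −1.68 (SE 0.42, limma adjusted p = 0.0318), kept in 2 of 8 single-array fits, while a second probe of the gene stayed between −0.89 and −0.29 on all arrays. Kcnc1, a fast delayed rectifier of rapidly firing neurons, was −1.20 in the same comparison (SE 0.26, limma adjusted p = 0.0224, kept in 3 of 8). Kcnh2, whose channel repolarizes the heart, was −1.09 (SE 0.22, limma adjusted p = 0.0208, kept in 3 of 8), Kcnq5, a subunit of the M-type current, −1.05 (SE 0.20, adjusted p = 0.0174, kept in 5 of 8) and Kcnq1, the pore of heart and epithelia that works with KCNE subunits, −0.95 (SE 0.26, adjusted p = 0.0414, kept in 1 of 8). The summed skeletal muscle list was lower on the same arrays, as given above, and its part in these values was not tested.

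The genes of the Shaker-type channels divided. Kcna4, an A-type pore, had log2 signals of 3.91 and 3.94 in CD109-/- skin after DMBA, 4.21 and 4.50 in CD109+/+ skin after DMBA, 3.67 and 3.82 under the label untreated CD109-/- and 3.50 and 3.88 under the label untreated CD109+/+. It was the only member higher on all 4 DMBA arrays than on any untreated array, with a gap of 0.03. Kcna1, Kcna2 and Kcna6, delayed rectifiers of nerve, were instead highest on the 2 untreated arrays with Cd109 signal. Kcna6 had 0.64 and 0.41 in CD109-/- skin after DMBA, 0.61 and 0.61 in CD109+/+ skin after DMBA, 1.41 and 0.22 under the label untreated CD109-/- and 1.57 and 0.32 under the label untreated CD109+/+. Kcna6 was lower, with the arrays exchanged, in untreated CD109-/- skin (log2 fold change −1.22, SE 0.14, limma adjusted p = 0.0103), as were Kcna1 (−1.30, SE 0.23, adjusted p = 0.0312) and Kcna2 (−1.10, SE 0.24, adjusted p = 0.0464). The calls were kept in 4, 2 and 4 of 8 single-array fits. After DMBA their exchanged log2 fold changes were −0.09, −0.39 and −0.10, and 0 of the 3 passed (limma adjusted p = 0.657, 0.248 and 0.776).

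Kcnh3, of the ether-a-go-go family, was 0.30 in the mean of the treatments of the exchanged arrangement (SE 0.08, limma adjusted p = 0.0426, kept in 1 of 8).

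The modifier subunits do not form channels alone but join voltage-gated pores and change their gating. Here 2 of 6 tested were higher in CD109-/- skin in the mean of the treatments of the exchanged arrangement and 0 were lower. This is 33.3%, near the 30.8% of all probes that passed in either direction, while 15.02% of all probes were higher. The median log2 fold change of the 6 was 1.16 beside 0.03 over all probes. Both the count and the median include Kcns2, whose limit is given next, and some other members not above background on all arrays. They are thus no independent support. Kcns2 was at −6.06 and −6.35 in CD109-/- skin after DMBA, −6.90 and −5.84 in CD109+/+ skin after DMBA, −7.70 and −5.11 under the label untreated CD109-/- and −7.62 and −5.10 under the label untreated CD109+/+. Only the arrays labelled untreated CD109-/- replicate 2 and untreated CD109+/+ replicate 2 were well above background, which the exchange puts into 1 group, so Kcns2 was tested only through the group where it was high and its p-values are no independent support. Its exchanged log2 fold change in untreated skin was 2.55 (SE 0.34, limma adjusted p = 0.0151), at least 1.49-fold, and in the mean of the treatments 1.36 (SE 0.24, adjusted p = 0.0154, kept in 7 of 8 single-array fits). Kcng2 was 1.48 in the mean of the treatments (SE 0.37, limma adjusted p = 0.0315, kept in 2 of 8). Kcnf1 lay between −5.97 and −3.09 and passed in 0 comparisons. Kcns3 was lower on all 4 low-Cd109 arrays, between −2.44 and −1.12 there and between −0.95 and −0.52 on the high-Cd109 arrays.

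The large-conductance calcium-activated channel was covered by its pore gene Kcnma1 and by 3 auxiliary subunits, and these did not move together. Kcnmb1, the subunit of smooth muscle that raises the calcium sensitivity of the channel, had log2 signals of −6.16 and −7.55 in CD109-/- skin after DMBA, against −3.75 and −3.88 in CD109+/+ skin after DMBA. They were −3.20 and −5.76 on the arrays labelled untreated CD109-/-, against −3.00 and −5.89 on those labelled untreated CD109+/+. The 4 high values were well above background and the 4 low values were not, so Kcnmb1 also entered the tests only through groups where it was high. The gap between them, 1.88, was larger than that of any other member. After DMBA the log2 fold change was −3.04, with a limma adjusted p of 0.186 (SE 1.21) with the labels as deposited and 0.0196 (SE 0.43) in the exchanged arrangement, at least 3.31-fold. The exchanged call was lost without DMBA-treated CD109+/+ replicate 1 (adjusted p = 0.109) and without replicate 2 of that group (adjusted p = 0.0934). In untreated skin it was −2.73 in the exchanged arrangement (SE 0.43, limma adjusted p = 0.0224), at least 6.29-fold, and −0.04 as labelled (SE 1.21, adjusted p = 1). In the mean of the treatments it was −2.88 (SE 0.30, limma adjusted p = 0.00551) and was kept in all 8 single-array fits. The summed smooth muscle and pericyte list was lower on the same arrays, with ranges that overlapped between 6.36 and 6.47, and its part was not tested.

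Kcnma1 had log2 signals of −3.48 and −3.11 in CD109-/- skin after DMBA, −2.64 and −3.01 in CD109+/+ skin after DMBA, −2.30 and −4.07 under the label untreated CD109-/- and −1.76 and −3.42 under the label untreated CD109+/+. It was lower in untreated CD109-/- skin with a log2 fold change of −1.72 in the exchanged arrangement (SE 0.31, limma adjusted p = 0.0310, kept in 2 of 8 single-array fits) and of −0.59 as labelled (SE 0.74, adjusted p = 1). Kcnmb4, the subunit best known from neurons, was higher on the arrays where Kcnmb1 and Kcnma1 were lower. It stood at −0.08 and 0.78 in CD109-/- skin after DMBA against −0.60 and −0.57 in CD109+/+ skin after DMBA. The untreated arrays gave −1.07 and 0.85 under the label CD109-/-, against −0.81 and 0.87 under the label CD109+/+. The exchanged log2 fold change was 1.80 in untreated skin (SE 0.28, limma adjusted p = 0.0224) and 1.36 in the mean of the treatments (SE 0.20, adjusted p = 0.0108, kept in all 8 single-array fits), against 0.40 as labelled (SE 0.56, adjusted p = 0.765). A second probe of Kcnmb4 lay between −3.24 and −2.41 on the low-Cd109 arrays and between −4.17 and −3.47 on the high-Cd109 arrays.

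**Figure D5:**
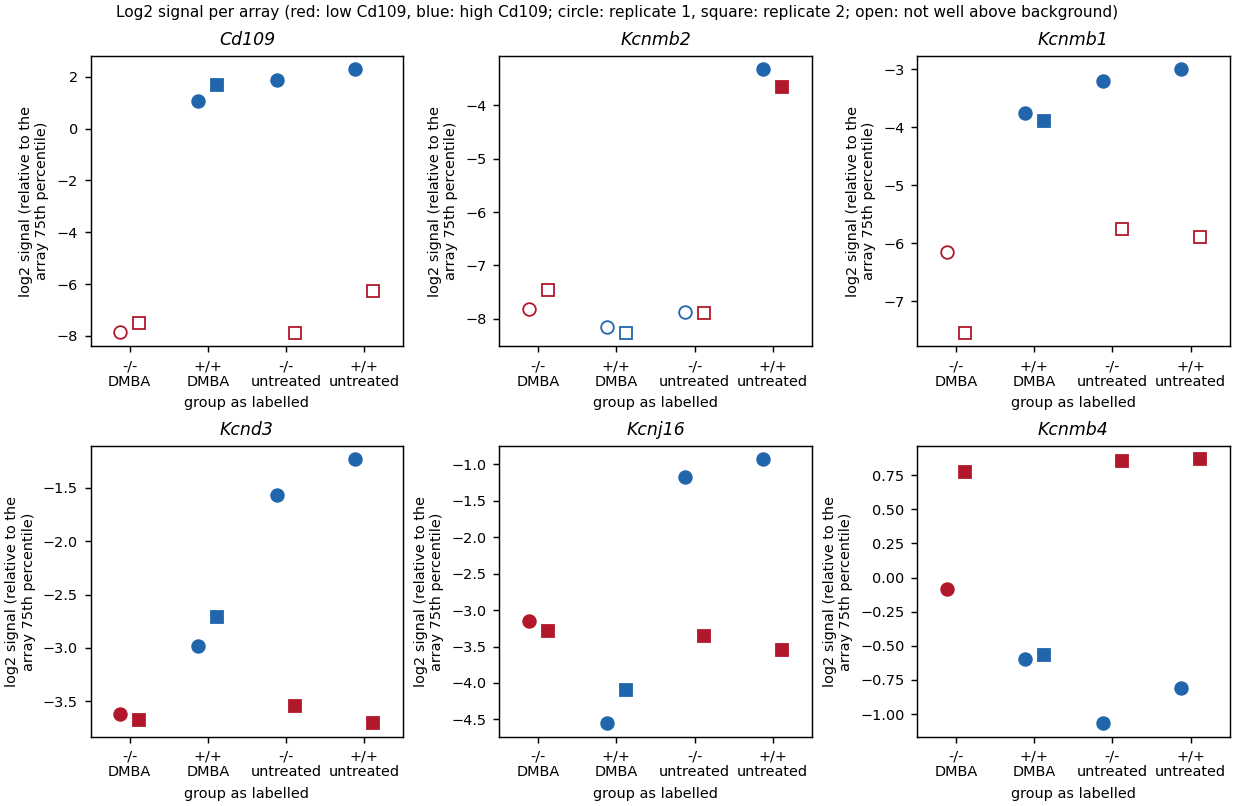
Log2 signals of Cd109 and 5 members on each of the 8 arrays, by group as labelled, with filled points well above background and open points not, and colour for high or low Cd109 signal. Within each untreated group 1 array follows the DMBA-treated CD109-/- arrays for Kcnmb1 and Kcnd3, whereas Kcnmb2 separates by the label.

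Further members were grouped by symbol as calcium- and sodium-activated channels. Of these, Kcnn3, a small-conductance channel of nerve and endothelium, was −1.63 in untreated skin in the exchanged arrangement (SE 0.23, limma adjusted p = 0.0181, kept in 4 of 8 single-array fits). After DMBA it was 0.08 (SE 0.23, limma adjusted p = 0.805). Its log2 signals on the arrays labelled untreated CD109-/- were −2.17 and −3.65, against −1.79 and −3.57 on those labelled untreated CD109+/+, so each label held 1 high and 1 low array. Kcnn4, the intermediate-conductance channel of lymphocytes and red cells, lay between −3.31 and −2.03 on the low-Cd109 arrays and between −1.70 and −1.47 on the high-Cd109 arrays. It passed in 0 comparisons, with the smallest limma adjusted p at 0.0716 in the exchanged mean of the treatments (−0.82, SE 0.28). Kcnu1, known from the sperm of mice, was lower on all 4 DMBA arrays, at −3.03 and −3.13 in CD109-/- skin and −3.36 and −3.61 in CD109+/+ skin. On the untreated arrays it was −2.22 and −2.06 under the label CD109-/- and −2.66 and −2.58 under the label CD109+/+. The DMBA change averaged over the genotypes was −0.90 (SE 0.12, limma adjusted p = 0.117 as labelled).

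The inward rectifiers gave 4 of 10 tested lower and 0 higher in CD109-/- skin in the mean of the treatments of the exchanged arrangement, where 15.8% and 15.02% of all probes passed, with a median log2 fold change of −0.59. Both pores of the ATP-sensitive channel were among them. Kcnj8, the pore of vascular smooth muscle and pericytes, had log2 signals of −1.53 and −2.64 in CD109-/- skin after DMBA, against −0.85 and −0.88 in CD109+/+ skin after DMBA. On the untreated arrays they were −0.10 and −2.06 under the label CD109-/- and −0.31 and −2.14 under the label CD109+/+. The 2 sets by Cd109 signal did not overlap, while the labelled untreated groups did. The exchanged log2 fold change was −1.56 in the mean of the treatments (SE 0.25, limma adjusted p = 0.0127, kept in 7 of 8 single-array fits) and −1.89 in untreated skin (SE 0.35, adjusted p = 0.0331, kept in 2 of 8). As labelled it was −0.54 (SE 0.61, limma adjusted p = 0.699) and 0.14 (SE 0.86, adjusted p = 1).

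Kcnj11, the other pore, of pancreatic beta cells and skeletal muscle, had log2 signals of −2.64 and −2.93 in CD109-/- skin after DMBA against −1.39 and −2.24 in CD109+/+ skin after DMBA. They were −1.11 and −2.73 on the arrays labelled untreated CD109-/-, against −0.64 and −2.76 on those labelled untreated CD109+/+. Its exchanged log2 fold change was −1.42 in the mean of the treatments (SE 0.22, limma adjusted p = 0.0126, kept in all 8 single-array fits). A second probe of the same Kcnj11 transcript ran the other way, at −5.01 and 0.32 in CD109-/- skin after DMBA, −4.07 and −4.87 in CD109+/+ skin after DMBA, −3.85 and −1.73 under the label untreated CD109-/- and −3.71 and 0.81 under the label untreated CD109+/+. The direction for Kcnj11 therefore differed between its probes on 3 of the 4 low-Cd109 arrays. Abcc9, the sulfonylurea receptor subunit that joins these pores in muscle, was −1.33 in untreated skin in the exchanged arrangement (limma adjusted p = 0.0275), but 0.36 after DMBA (adjusted p = 0.263) and −0.49 in the mean of the treatments (adjusted p = 0.0656).

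Kcnj12, an inward rectifier of heart and skeletal muscle, had log2 signals of −0.41 and −0.92 in CD109-/- skin after DMBA, 0.33 and 0.01 in CD109+/+ skin after DMBA, 0.45 and −0.46 under the label untreated CD109-/- and 0.69 and −0.42 under the label untreated CD109+/+. Its exchanged change was −0.92 in the mean of the treatments (SE 0.15, limma adjusted p = 0.0141, kept in 7 of 8 single-array fits). Kcnj16, which joins other inward rectifiers and makes them sensitive to pH, passed in 0 comparisons with the labels as deposited and in 5 with the arrays exchanged. Its log2 signals were −3.15 and −3.29 in CD109-/- skin after DMBA against −4.55 and −4.09 in CD109+/+ skin after DMBA. They were −1.18 and −3.35 on the arrays labelled untreated CD109-/-, against −0.93 and −3.55 on those labelled untreated CD109+/+. The 2 untreated arrays with Cd109 signal were thus the highest of the 8 and the 2 DMBA arrays with Cd109 signal the lowest, while the 4 arrays without it stayed between −3.55 and −3.15. With the 2 arrays exchanged, the change with DMBA in CD109+/+ skin was −3.27 (SE 0.20, limma adjusted p = 0.00800), which was lost without DMBA-treated CD109+/+ replicate 1 (−3.04, adjusted p = 0.0589). In CD109-/- skin the change was 0.24 (SE 0.20, limma adjusted p = 0.562), and the difference between the 2 effects was 3.50 (SE 0.28, adjusted p = 0.0574).

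Between the genotypes, Kcnj16 was higher in CD109-/- skin after DMBA by 1.11 in the exchanged arrangement (SE 0.20, limma adjusted p = 0.0264) and lower in untreated CD109-/- skin (−2.40, SE 0.20, adjusted p = 0.00566, kept in 7 of 8 single-array fits). The value after DMBA was kept in 5 of 8 such fits and was lost with quantile normalization (0.78, limma adjusted p = 0.0652) and with centring on the median (0.78, adjusted p = 0.0514). As labelled, the same differences were 1.11 (SE 1.01, limma adjusted p = 0.495) and −0.02 (SE 1.01, adjusted p = 1). Kcnj15, which pairs with Kcnj16 in epithelia, ranged between −1.22 and −0.14 and passed in 0 comparisons.

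The tandem-pore leak channels gave 1 of 12 higher and 2 lower in CD109-/- skin in the mean of the treatments of the exchanged arrangement, which is 25% of them where 30.8% of all probes passed, with a median log2 fold change of −0.08. Kcnk16, known from pancreatic islets, was the higher one. It stood at −3.29 and −1.60 in CD109-/- skin after DMBA against −4.33 and −4.10 in CD109+/+ skin after DMBA. The untreated arrays gave −4.21 and −2.61 under the label CD109-/-, against −3.72 and −1.85 under the label CD109+/+. The exchanged change was 1.75 (SE 0.41, limma adjusted p = 0.0267, kept in 2 of 8 single-array fits). Kcnk3, an acid-sensitive leak channel, was −0.84 (SE 0.21, limma adjusted p = 0.0330, kept in 2 of 8) and Kcnk13 −0.45 (SE 0.11, adjusted p = 0.0317, kept in 1 of 8). Kcnk10, a stretch-sensitive channel, was −1.37 in untreated skin (SE 0.29, limma adjusted p = 0.0437, kept in 2 of 8). Kcnk6 stayed between 2.27 and 3.07 on the 8 arrays and passed in 0 comparisons (smallest limma adjusted p 0.0725). Kcnk7 stayed between −0.73 and 0.04 and Kcnk4 between −1.08 and −0.70.

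Of the remaining auxiliary subunits, Kcne1l, of the KCNE family, was lower on all 4 low-Cd109 arrays. It stood at −3.00 and −2.99 in CD109-/- skin after DMBA against −2.07 and −2.20 in CD109+/+ skin after DMBA. They were −1.92 and −2.76 on the arrays labelled untreated CD109-/-, against −1.76 and −2.83 on those labelled untreated CD109+/+. The exchanged change was −0.91 in the mean of the treatments (SE 0.09, limma adjusted p = 0.00466, kept in all 8 single-array fits) and −0.86 after DMBA (SE 0.12, adjusted p = 0.0203, kept in 5 of 8), while as labelled it was −0.45 (SE 0.30, adjusted p = 0.536) and −0.86 (SE 0.42, adjusted p = 0.249). A second probe lay between −3.74 and −3.58 on the low-Cd109 arrays and between −3.35 and −3.10 on the high-Cd109 arrays. Kcnab1, a cytoplasmic subunit of Shaker-type channels, was −0.47 in the mean of the treatments (SE 0.09, limma adjusted p = 0.0176, kept in 4 of 8). Its relative Kcnab2 was at −5.49 and −6.19 in DMBA-treated CD109-/- skin, against −4.52 and −4.56 in DMBA-treated CD109+/+ skin, whose 2 arrays were the only ones well above background. Kcnab2 too was tested only through the group where it was high, and its p-value is conditioned on that. The exchanged change after DMBA was −1.30 (SE 0.25, limma adjusted p = 0.0293, kept in 3 of 8), at least 1.85-fold. Kcnip3, of the family of Kcnd partners, stayed between −0.49 and 0.04 on the 8 arrays. Kcne3, a partner of Kcnq1, lay between −2.28 and −1.17 on the low-Cd109 arrays and between −0.86 and −0.22 on the high-Cd109 arrays, and did not pass (exchanged −0.88, SE 0.27, limma adjusted p = 0.0538).

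Few of these genes, and few probes at large, followed DMBA. Of the 69 members, 4 were lower on all 4 DMBA arrays than on any untreated array, where 2.42% of all tested probes were, and 1 was higher, where 3.78% were. The 4 lower members were Kcna1, Kcnu1, Kcnn2 and Kcnd2. After DMBA, Kcnd2 was well above background on 1 array of CD109-/- skin and 0 of CD109+/+ skin, and its gap was 0.10. With the arrays exchanged, 6 of 68 members were lower and 0 higher with DMBA in CD109+/+ skin (8.82%), where 3.51% of all probes passed, 1.14% lower and 2.37% higher. Beside Kcnj16 these were Kcnk10 (−1.75, SE 0.29, limma adjusted p = 0.0386), Kcna2 (−1.56, SE 0.24, adjusted p = 0.0337), Kcna1 (−1.56, SE 0.23, adjusted p = 0.0320), Kcnd3 (−1.44, SE 0.17, adjusted p = 0.0204) and Kcna6 (−0.88, SE 0.14, adjusted p = 0.0359). Each of these 5 was kept in 2 of 8 single-array fits. Averaged over the genotypes, Kcnj16 (−1.52, SE 0.14, limma adjusted p = 0.0227) and Kcna1 (−1.10, SE 0.16, adjusted p = 0.0454) passed in that arrangement, where 1.50% of all probes did (1.06% higher and 0.439% lower), and they were kept in 2 and 1 of 8 single-array fits. With DMBA in CD109-/- skin it was 0 of 68, where 0.0135% of all probes passed (0.00538% higher and 0.00808% lower), with 7 at an unadjusted limma p under 0.05. For the difference of the effects it was 0, where 0.0269% passed (0.0108% higher and 0.0162% lower), with 15 at an unadjusted limma p under 0.05.

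Kcna1 had log2 signals of −0.08 and −0.61 in CD109-/- skin after DMBA and 0.10 and −0.01 in CD109+/+ skin after DMBA. The untreated arrays gave 1.39 and 0.40 under the label CD109-/- and 1.81 and 0.21 under the label CD109+/+. All 4 untreated arrays were above all 4 DMBA arrays, with a gap of 0.11. The estimate averaged over the genotypes was −1.10 in both arrangements, and its limma adjusted p was 0.401 as labelled. Of 5 neutrophil genes, 2 were higher on all 4 DMBA arrays than on any untreated array and 3 overlapped. Their summed signal was 7.51 to 8.80 on the DMBA arrays against 6.26 to 7.27 on the untreated arrays, and their part in these values was not tested.

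Genes that move potassium or work beside these channels without belonging to the family were followed for comparison, such as the sodium-potassium pump, cation-chloride cotransporters and sulfonylurea receptors. Of the 44 listed, 40 were tested with the labels as deposited and 0 passed in any of the 7 comparisons in limma, with 2 to 9 at an unadjusted p under 0.05. With the arrays exchanged, 39 were tested, and the counts that follow stand beside 20.1%, 8.89% and 30.8% of all probes after DMBA, in untreated skin and in the mean of the treatments. After DMBA 3 were higher in CD109-/- skin, the proton-potassium pump Atp12a (1.93, limma adjusted p = 0.0458), the chloride channel Cftr (1.22, adjusted p = 0.0296) and the kinase Wnk4 (1.35, adjusted p = 0.0293). Another 3 were lower, among them the pump subunit Atp1b2 (−1.13, limma adjusted p = 0.0475) and the cotransporter Slc12a7 (−0.80, adjusted p = 0.0335). In untreated skin 5 were lower and 0 higher, among them the pump subunit Atp1b1 (−1.24, limma adjusted p = 0.0371). In the mean of the treatments it was 15 lower and 3 higher, and the median of the list was −0.14, beside 0.03 over all probes.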

How the data were processed

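RNA of whole skin, labelled with Cy3, was hybridized to 8 Agilent mouse arrays of 1 colour, which the file headers place on 1 slide. The authors extracted the spot signals in Agilent Feature Extraction (version 11.5.1.1). The deposited processed signals are intensities, linear, background-subtracted and detrended within each array only. In the deposited series table each intensity is scaled by 1 factor per array, whose origin is not known here. That table served as an alternative. Control spots were excluded, spots marked as outliers were excluded on their array, and the rest were averaged per probe. Of 55681 probes (59305 spots), 223 had an array without a usable spot, and 55458 remained. Values are log2 minus the 75th percentile of the array. RefSeq accessions gave 27922 of 29684 probes (94.1%) a gene name.

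limma 3.58.1 (R 4.3.3) fitted the 4 groups together in 7 comparisons: the genotypes after DMBA, untreated and averaged, DMBA in each genotype and averaged, and the difference of the DMBA effects. A result passed with an adjusted p under 0.05 (Benjamini-Hochberg, all tested probes). Where 1 group was not above background, the fold is a lower bound, computed with the lowest signal above background on each array. The methods' t-test is Student's, per probe, with a 2-way analysis of variance for averages and differences. Precision is limited by the number of arrays. The script was tested on simulated data.

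The members, the lists and the exchanged arrangement were chosen with earlier results of these data known. The genes named are those that passed in a comparison (at most 15 per direction), those without overlap between arrays of low and high Cd109 signal, the 3 brightest per role and those at the detection limit. The alternatives were other scalings (quantile, median centring), a normexp background (offset 50, on median signals), no filter, a filter on all 8 arrays, the replicate block, only the arrays compared, the mean of a gene's probes, the deposited table, the methods' t-test, leaving out each array, and leaving out both arrays in doubt. Other scalings of the exchanged arrangement were added after seeing the data. Promoter windows came from RefSeq (GRCm38.p6). Protein and probe sequences are not used here. Some genes that the rule would name are not reported here, though the counts include them.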

Additional observations from a re-analysis of the deposited data

Results flagged for a closer look

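For 4 of the genes reported here, in the exchanged arrangement, both arrays of CD109-/- skin moved one way with DMBA and both arrays of CD109+/+ skin the other way, against both untreated arrays of the group. For Kcnj16 the change was 0.24 in CD109-/- skin and −3.27 in CD109+/+ skin, a difference of 3.50 (SE 0.28, limma adjusted p = 0.0574). The difference was 1.71 for Kcnn3 (SE 0.33, limma adjusted p = 0.100), 1.13 for Kcna6 (SE 0.19, adjusted p = 0.0880) and −0.87 for Kcnmb4 (SE 0.40, adjusted p = 0.274). The test of the difference passed in 0 of the 4. The share of all probes with this pattern is not given, so the 4 are listed as single genes and not as a trait of the family.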

How the results depend on the processing

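The count of potassium channel genes that passed rested on which array belongs to which genotype. Exchanging the 2 untreated arrays gave 7 after DMBA (0 as labelled), 18 in untreated skin (1), 27 in the mean of the treatments (0), 6 for DMBA in CD109+/+ skin (1) and 2 for DMBA averaged over the genotypes (1). For the 3 comparisons with 1 call, which is Kcnmb2, the count was 0 without both arrays in doubt, with the normexp background and with the filter on all 8 arrays, which drops Kcnmb2, and 0 after adjustment of the methods' t-test. It was also 0 with only the arrays compared, in the 2 of these comparisons where that could be fitted, and 0 without a filter for DMBA averaged over the genotypes. With normexp the Kcnmb2 change was −0.81, −0.74 and −0.16 in untreated skin, for DMBA in CD109+/+ skin and averaged over the genotypes. Quantile normalization and centring on the median gave 1 instead of 0 in the mean of the treatments and 1 instead of 0 for the difference of the DMBA effects. Without adjustment the methods' t-test gave 8 after DMBA, 2 in untreated skin, 3 in the mean of the treatments, 6, 4 and 8 for DMBA in CD109+/+ skin, in CD109-/- skin and averaged, and 3 for the difference. Leaving out each array gave 0 in untreated skin, 0 to 1 for DMBA in CD109+/+ skin and 0 for DMBA averaged.

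In the exchanged arrangement, leaving out each array gave 0 to 19 members after DMBA, 1 to 22 in untreated skin, 9 to 32 in the mean of the treatments, 0 to 8 for DMBA in CD109+/+ skin and 0 to 3 for DMBA averaged. Centring on the median, added after seeing the data, gave 20 after DMBA, 1 higher and 19 lower, where it moved the median of all probes to −0.26, and 1 for the difference of the DMBA effects. Quantile normalization also gave 1 for that difference and 7 after DMBA, 0 higher and 7 lower. Of the 60 exchanged calls, 50 were kept with quantile normalization and 51 with centring. In 0 results did the direction turn. The share of all probes that passed in each of these settings is not given, and the cause of these shifts was not tested.

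Replicate numbers are not stated to pair the samples, and the deviations of same-numbered arrays correlated between −0.08 and 0.73 between groups. The 0.73 was between the 2 untreated groups as labelled. In both of them replicate 1 had the high and replicate 2 the low Cd109 signal. That correlation and the block in untreated skin therefore cannot tell a pairing from the division by Cd109 signal. With the replicate number as a block, 1 member passed after DMBA, 0 in untreated skin, 1 for DMBA in CD109+/+ skin (Kcnmb2, adjusted p = 0.0432) and 0 for DMBA averaged. With 2 arrays per group and dim probes among the members, differences near the background are bounds only.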

Other observations

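Other probes of members did not all repeat the brightest one. The second probe of Kcna6 was above background on 1 array only, the array labelled untreated CD109+/+ replicate 1, at −2.60, where the brightest probe was also high on the array labelled untreated CD109-/- replicate 1. Both other probes of Kcnc1 were lower in DMBA-treated CD109-/- skin, at −3.67 and −4.68 against −1.74 and −2.83 in DMBA-treated CD109+/+ skin for the one, and at −5.17 and −7.24 against −3.81 and −4.55 for the other. Of 3 further probes of Kcnma1, the 2 above background on all 8 arrays were highest on the 2 untreated arrays with Cd109 signal, at −3.14 and −2.58 for the one and −2.29 and −1.79 for the other on the arrays labelled CD109-/- replicate 1 and CD109+/+ replicate 1.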
